A study of Mus musculus with 4 samples.

Results

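The LKB1, AMPK and mTORC1 nutrient sensing genes are 44 genes listed by name, out of 21887 protein-coding genes examined. They encode the machinery by which a cell reads its energy and amino acid supply. For each gene, the highest-scoring ATAC-seq summit within 1000 bp of either end of the gene was taken in each of 4 libraries. The libraries came from haematopoietic stem cells (HSCs) of male C57BL/6 mice, wild type and 8 weeks old. The HSC gate was LSK (lineage-depleted, Sca-1-positive, Kit-positive), CD34-, CD48-, Flt3- and Slam1+, and surface CD93 split it into a CD93-positive and a CD93-negative fraction with 2 libraries each. Marrow of femora and tibiae was pooled, and the labels do not say whether the libraries of a fraction came from separate mice, so their spread may be technical. ATAC-seq marks accessible DNA by where the Tn5 transposase inserts, and a summit is the point of highest signal in a called peak.

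As background, LKB1, the kinase encoded by Stk11, works in a complex with the pseudokinase STRAD and the scaffold MO25 and activates AMPK, a heterotrimer that senses a falling energy charge. AMPK restrains mTORC1, the growth-promoting kinase complex, through the TSC complex and through Raptor. Amino acids act by a parallel route in which Rag GTPases, anchored on the lysosome by Ragulator, bring mTORC1 to its activator Rheb, while GATOR1, GATOR2, the sestrins and FLCN with its FNIP partners set the state of the Rags. Loss of Lkb1 or Tsc1 in mice is known to deplete HSCs.

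CD93-positive replicate 1 had 21 summits and replicate 2 had 711, while CD93-negative replicate 1 had 7989 and replicate 2 had 2755. Read depth is unknown. A gene is called listed below when it has a gene-end summit. The score is the peak caller's −log10 significance (of p or q, not stated which) and is not scaled between libraries. Each score is therefore also given as a percentile, the share of all listed genes of that library with an equal or lower score. Percentiles depend on the length of a list, so a difference between libraries in them shows no change at a gene. A gene that is not listed is not shown to be closed, because the lists hold only sites above the caller's minimum. Of 16 HSC genes checked against the label, Tal1 and Lyl1 (12.5%) were listed in CD93-negative replicate 1, where 32.2% of all genes were, and none in the other libraries. Of 4 genes of the sort gate, Flt3, whose protein the gate excludes, was listed in CD93-negative replicate 1 (score 10.8, percentile 15.4), and none was listed elsewhere. The 8 endothelial and the 8 erythroid and megakaryocyte genes were listed in no library. Of 8 myeloid genes, S100a8, S100a9 and Cd68 (37.5%) were listed in CD93-negative replicate 1, against 32.2% of all genes. S100a8 (12.5%) was also listed in CD93-negative replicate 2, against 12.9% of all genes. The myeloid shares were thus near those of all genes. Of 8 B and T cell genes, Cd3d (12.5%) was listed in CD93-negative replicate 1, below the share of all genes. The part of other cell types in the counts below was not tested.

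The 5 members listed in a CD93-positive library came first by the naming rule, and Sesn3 was the next. The 250 bases before their annotated starts are shown (RefSeq, GRCm38.p6, the assembly behind mm10, all on the plus strand, 5′ to 3′). Capitals mark every match to 11 short words searched on both strands, such as CCAAT (NF-Y), with ATTGG on the other strand, the E-box CACGTG and GGGCGGG (SP and KLF factors), with CCCGCCC on the other strand. The regions were chr10:80115545-80115794 for Stk11, chr7:101905587-101905836 for Lamtor1, chr11:54437929-54438178 for Fnip1, chr4:123917183-123917432 for Rragc, chr6:8208977-8209226 for Mios and chr9:14276051-14276300 for Sesn3.
Stk11: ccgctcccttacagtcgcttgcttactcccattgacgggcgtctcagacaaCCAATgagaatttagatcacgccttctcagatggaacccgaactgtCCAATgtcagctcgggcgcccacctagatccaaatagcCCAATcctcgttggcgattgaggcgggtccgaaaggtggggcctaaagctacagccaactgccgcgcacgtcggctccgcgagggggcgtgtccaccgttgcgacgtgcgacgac
Lamtor1: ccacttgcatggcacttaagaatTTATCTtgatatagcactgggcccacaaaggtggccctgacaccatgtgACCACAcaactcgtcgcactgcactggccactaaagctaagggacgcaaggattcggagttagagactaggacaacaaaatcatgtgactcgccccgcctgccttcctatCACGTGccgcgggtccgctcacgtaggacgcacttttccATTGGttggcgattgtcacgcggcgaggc
Fnip1: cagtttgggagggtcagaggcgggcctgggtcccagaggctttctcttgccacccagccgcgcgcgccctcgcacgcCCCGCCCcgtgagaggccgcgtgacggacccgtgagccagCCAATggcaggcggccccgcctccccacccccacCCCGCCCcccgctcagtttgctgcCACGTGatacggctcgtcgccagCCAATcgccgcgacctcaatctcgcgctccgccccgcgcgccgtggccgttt
Rragc: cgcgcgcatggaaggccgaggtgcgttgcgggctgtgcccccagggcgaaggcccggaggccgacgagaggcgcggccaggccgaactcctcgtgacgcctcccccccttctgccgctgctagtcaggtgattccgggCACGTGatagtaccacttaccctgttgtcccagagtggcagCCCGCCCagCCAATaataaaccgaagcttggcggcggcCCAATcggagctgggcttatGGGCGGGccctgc
Mios: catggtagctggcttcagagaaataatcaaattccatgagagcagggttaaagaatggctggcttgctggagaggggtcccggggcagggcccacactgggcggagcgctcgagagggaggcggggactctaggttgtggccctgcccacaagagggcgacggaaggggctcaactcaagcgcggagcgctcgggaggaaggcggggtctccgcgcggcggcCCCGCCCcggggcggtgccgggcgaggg
Sesn3: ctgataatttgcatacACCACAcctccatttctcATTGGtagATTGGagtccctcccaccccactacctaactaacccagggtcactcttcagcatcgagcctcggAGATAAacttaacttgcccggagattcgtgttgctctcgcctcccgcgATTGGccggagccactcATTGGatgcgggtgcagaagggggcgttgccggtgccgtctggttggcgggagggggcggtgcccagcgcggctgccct
The Stk11 stretch held 3 CCAAT words, and Sesn3 held 4 on the other strand. Lamtor1, Fnip1 and Rragc each held 1 E-box, with its first base at -68, -75 and -112 relative to the start. The word matches describe letters and not bound sites.

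More nutrient sensing genes had a listed gene-end summit in each CD93-negative library than in either CD93-positive one, with lists at their full and unequal lengths. In CD93-negative replicate 1, 35 of the 44 genes were listed, or 79.5% (exact Clopper-Pearson 95% interval 64.7 to 90.2), against 32.2% of all protein-coding genes. In CD93-negative replicate 2 it was 21 genes, or 47.7% (32.5 to 63.3), against 12.9% of all genes. CD93-positive replicate 2 listed 5 genes, or 11.4% (3.79 to 24.6), against 3.22% of all genes, and CD93-positive replicate 1 listed none, against 0.0183% of all genes. The intervals treat genes as independent and cover counting error only. The members' share thus lay above that of all genes in the 3 longer lists.

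The members' lists were nested, much as those of all genes were. All 21 members of CD93-negative replicate 2 were also in CD93-negative replicate 1, as were 98.5% of all genes listed there, and all 5 members of CD93-positive replicate 2 were in both CD93-negative libraries. Of the 704 genes of all kinds listed in CD93-positive replicate 2, 701 were in CD93-negative replicate 1 and 608 in CD93-negative replicate 2. No member was listed in a CD93-positive library alone, and 3 of all genes were in CD93-positive replicate 2 alone. The 5 genes in 3 libraries, 11.4% of the members against 2.77% of all genes, were Stk11, Lamtor1, Rragc, Fnip1 and Mios. Another 16 members, 36.4% against 9.95% of all genes, were in both CD93-negative libraries and neither CD93-positive one. A further 14, 31.8% against 19.0% of all genes, were in CD93-negative replicate 1 alone, and 9, 20.5% against 67.6%, were in no list.

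**Figure D1:**
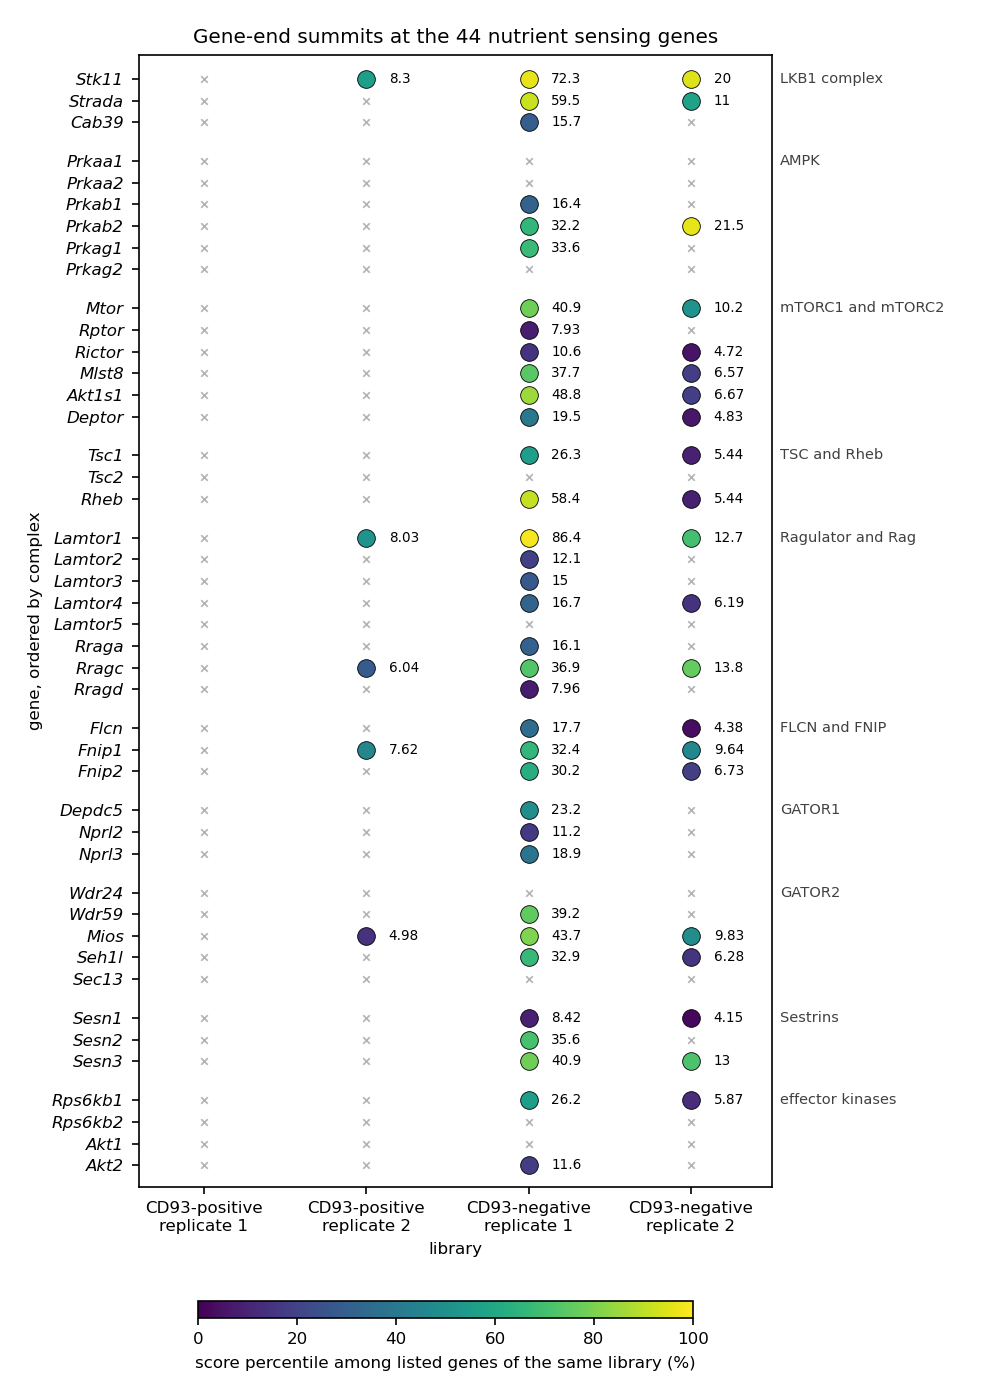
Gene-end summits at the 44 genes (rows, by complex) in the 4 libraries (columns). A circle is a listed gene, with its score printed beside it and its colour giving the percentile among listed genes of that library, and a grey cross is a gene not listed. CD93-negative replicate 1 lists 35 genes, CD93-negative replicate 2 21, CD93-positive replicate 2 5 and CD93-positive replicate 1 none.

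The mean share of members listed was 5.68% ± 8.04 (SD, n = 2) in the CD93-positive and 63.6% ± 22.5 (SD, n = 2) in the CD93-negative libraries, a difference of 58.0 percentage points. Over all protein-coding genes the same means were 1.62% ± 2.26 (SD, n = 2) and 22.5% ± 13.6 (SD, n = 2), a difference of 20.9 points. The fractions did not overlap in either set. No test is given, since 2 libraries against 2 cannot give an exact permutation p below 0.333 (two-sided). The lists differ in length in the same direction, so lists of equal length were also compared. The 711 highest-scoring summits of each longer list were kept. CD93-negative replicate 1 then listed 4 members, or 9.09% (95% interval 2.53 to 21.7), against 3.28% of all genes. CD93-negative replicate 2 listed 3 members, or 6.82% (1.43 to 18.7), against 3.38% of all genes. The 5 of CD93-positive replicate 2 lay above both, and the difference between the fractions was 2.27 points, with CD93-positive replicate 1 still at its 21 summits. At 711 summits, neither CD93-negative list thus held more members than CD93-positive replicate 2. The other CD93-positive library did not reach that length, so whether the fractions differ at these genes cannot be decided.

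The genes listed at equal length differed between libraries. Stk11 was in all 3 of those lists. Lamtor1 was shared by CD93-positive replicate 2 and CD93-negative replicate 1, and Rragc by CD93-positive replicate 2 and CD93-negative replicate 2. Strada and Rheb were among the 711 strongest of CD93-negative replicate 1 alone, and Prkab2 of CD93-negative replicate 2 alone. Fnip1 and Mios were listed at this length in CD93-positive replicate 2 alone. Its 711 summits are its whole list, so all its members are in it by construction. By score Fnip1 and Mios were summits 404 and 622 of that list. With CD93-negative replicate 1 cut to the 2755 summits of replicate 2, it listed 17 members, or 38.6%, against 12.9% of all genes, beside the 21 members of replicate 2.

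**Figure D2:**
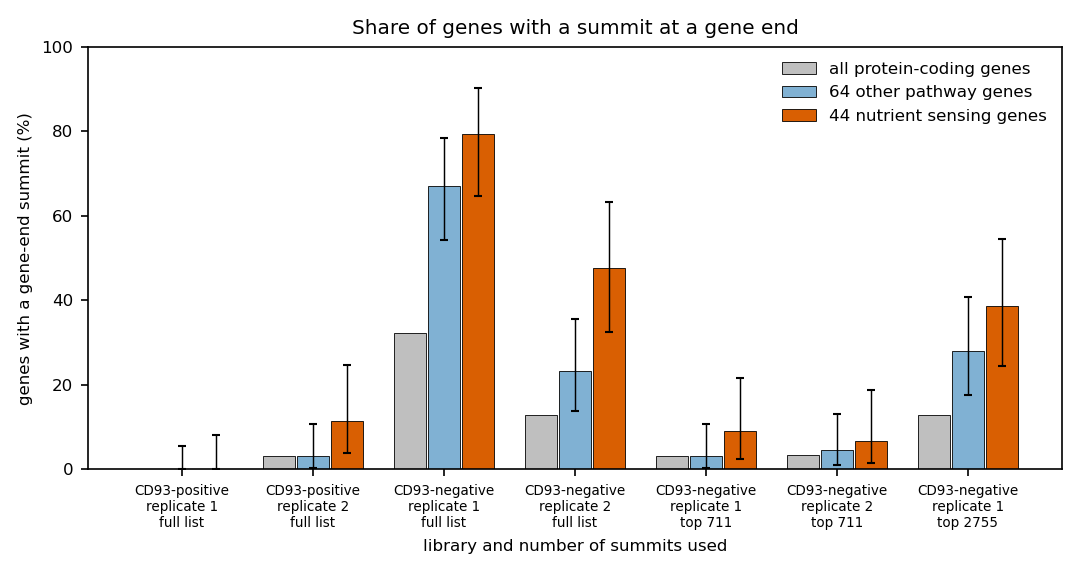
Percent of genes with a gene-end summit (vertical axis) in each library, with full lists and with lists cut to their 2755 or 711 highest-scoring summits (horizontal axis). Bars are all protein-coding genes, the 64 other pathway genes and the 44 members, and error bars on the members and other pathway genes are exact 95% binomial intervals. The members' bars stand above those of all genes wherever any member is listed. Those of the 3 lists of 711 summits lie between 6.82% and 11.4%. In the CD93-negative lists cut to 711 summits, the members' intervals include the share of all genes. In CD93-positive replicate 2 the interval, 3.79 to 24.6, lies above the 3.22% of all genes. The intervals cover counting error only and are no test of the members or of the fractions.

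The LKB1 complex was listed in full in CD93-negative replicate 1, with 3 of 3 genes. Stk11 (gene ID 20869, chromosome 10, 80115767 to 80130679), the kinase itself, had a score of 8.30 in the second CD93-positive library, 72.3 in CD93-negative replicate 1 and 20.0 in CD93-negative replicate 2, and was not listed in CD93-positive replicate 1. Its percentiles in those 3 lists were 55.8, 96.2 and 94.6. It was summit 341 of 711, 285 of 7989 and 166 of 2755 by score, so that it was among the 711 strongest summits of both CD93-negative libraries. The 3 summits lay at -151, -165 and -125 bp relative to the annotated start, over the stretch that holds the CCAAT words in the sequence above. Strada, the pseudokinase that activates LKB1, scored 59.5 and 11.0 in CD93-negative replicates 1 and 2, at percentiles 91.9 and 57.7. Cab39, which encodes the MO25 scaffold, was in CD93-negative replicate 1 alone with a score of 15.7 (percentile 29.3). The catalytic subunit thus ranked above both partners in each CD93-negative list.

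Of the 6 AMPK genes, 3 were listed in CD93-negative replicate 1 and 1 in replicate 2, all of them regulatory subunit genes. The shares were 50.0% and 16.7%, against 32.2% and 12.9% of all genes. None was listed in a CD93-positive library. The catalytic subunit genes Prkaa1 and Prkaa2 were listed in no library. Their nearest summits in CD93-negative replicate 1 lay 27368 bp and 1206229 bp from a gene end. Of the β subunits, which hold the trimer together, Prkab2 scored 32.2 and 21.5 in CD93-negative replicates 1 and 2. Its percentile was 65.7 in replicate 1 and 96.3 in replicate 2, and by score it was summit 2336 of 7989 and 120 of 2755. Prkab1 was in CD93-negative replicate 1 alone (score 16.4, percentile 31.3). Of the γ subunits, which bind adenine nucleotides, Prkag1 scored 33.6 (percentile 67.9) in CD93-negative replicate 1. Its summit, 9 bp inside the gene, also lay within 1000 bp of an end of Kmt2d, a histone methyltransferase gene. Prkag2 had no gene-end summit. It did have a summit inside the gene in that library (chromosome 5, 24908633, score 23.9), at -124 bp relative to the innermost of its annotated starts.

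All 6 genes of the mTOR complexes were listed in CD93-negative replicate 1 and 5 of them in replicate 2, with Rptor as the exception. Mtor, the kinase, scored 40.9 and 10.2 in CD93-negative replicates 1 and 2 (percentiles 77.9 and 51.3), with summits at -117 and -137 bp relative to its start. A further summit in replicate 1 (score 12.6) lay 794 bp beyond its other end, near Exosc10. Akt1s1, which encodes the mTORC1 inhibitor PRAS40, scored 48.8 and 6.67 (percentiles 85.3 and 18.2). Its summits lay 169 and 113 bp outside the gene, and Tbc1d17, a neighbour, was the nearer gene. Mlst8, a subunit of both complexes, scored 37.7 and 6.57 (percentiles 74.0 and 18.0). Rptor, encoding Raptor of mTORC1, scored 7.93 (percentile 7.82) in replicate 1, and Rictor, of mTORC2, scored 10.6 and 4.72 (percentiles 14.7 and 5.30). Deptor, an inhibitor of mTOR, scored 19.5 and 4.83 (percentiles 40.0 and 5.87). None of the 6 was in a CD93-positive list.

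Upstream of mTORC1, Tsc1 and Rheb were listed in both CD93-negative libraries and Tsc2 in none. Rheb, the GTPase that activates mTORC1, scored 58.4 in CD93-negative replicate 1 and 5.44 in replicate 2. Its percentiles were 91.3 and 8.91, the widest gap of any member between these lists of unequal length, and the summits lay 45 bp apart. Tsc1, the stabilising subunit of the TSC complex, scored 26.3 and 5.44 (percentiles 55.6 and 9.23). For Tsc2, which carries the GTPase-activating domain toward Rheb, the nearest summit in CD93-negative replicate 1 lay 37002 bp away.

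Ragulator and the Rag GTPases had 7 of 8 genes listed in CD93-negative replicate 1, 3 in replicate 2 and 2 in CD93-positive replicate 2. Lamtor1, the subunit that anchors Ragulator to the lysosomal membrane, scored 8.03 in the second CD93-positive library, 86.4 in CD93-negative replicate 1 and 12.7 in replicate 2. Its percentiles were 51.3, 98.5 and 70.0, and no other member scored as high in CD93-negative replicate 1. The summits lay at -57, -43 and -19 bp, between the E-box and the start, and also within 1000 bp of an end of the neighbour Tomt. Rragc, a Rag GTPase of the C and D pair, scored 6.04 in the second CD93-positive library, 36.9 in CD93-negative replicate 1 and 13.8 in replicate 2 (percentiles 28.6, 72.8 and 76.0). Its summits lay at -182, -45 and -5 bp. The CD93-positive summit was 137 and 177 bp from the CD93-negative ones, the widest such distance among the 5 genes. Lamtor4 was in both CD93-negative lists (16.7 and 6.19, percentiles 32.2 and 14.7), and Lamtor2, Lamtor3, Rraga and Rragd were in replicate 1 alone with scores of 7.96 to 16.1. The Lamtor2 summit of highest score lay 746 bp from the gene, nearer to Ubqln4, and a weaker one (7.45) lay 61 bp inside it. Lamtor5 was in no list.

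FLCN and its partners, which act on the C and D type Rags, were listed in full in both CD93-negative libraries. Fnip1 scored 7.62 in CD93-positive replicate 2, 32.4 in CD93-negative replicate 1 and 9.64 in CD93-negative replicate 2 (percentiles 46.3, 66.0 and 46.6). In the first 2 lists the summit was at the same base, 54438038 on chromosome 11, at -141 bp, and in the third it lay 36 bp away. Fnip2 scored 30.2 and 6.73 (percentiles 62.3 and 18.7), and Flcn 17.7 and 4.38 (percentiles 34.9 and 3.22).

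GATOR1 and GATOR2, the opposed regulators of the A and B type Rags, differed in listing. All 3 GATOR1 genes were in CD93-negative replicate 1 alone, with Depdc5 at 23.2 (percentile 48.6), Nprl3 at 18.9 and Nprl2 at 11.2. Their percentiles, 16.6 to 48.6, all lay below the middle of the list. Nprl3 also had a summit inside the gene, 16667 bp from the nearest end (chromosome 11, 32251040, score 13.7). As background, the introns of Nprl3 hold distant regulatory elements of the neighbouring α-globin genes. Whether this summit is one of them was not tested. Of the 5 GATOR2 genes, Mios, Wdr59 and Seh1l were in CD93-negative replicate 1 at percentiles of 67.0 to 80.8. Mios, a scaffold subunit, scored 4.98 in CD93-positive replicate 2, 43.7 in CD93-negative replicate 1 and 9.83 in CD93-negative replicate 2 (percentiles 14.1, 80.8 and 48.5). Its summits lay 17, 30 and 10 bases after the annotated start, just past the end of the sequence shown. Seh1l, also a nuclear pore gene, scored 32.9 and 6.28 in the CD93-negative libraries (percentiles 67.0 and 15.4), and Wdr59 scored 39.2 in replicate 1 alone. Wdr24 and Sec13, the latter shared with the nuclear pore and the COPII coat, were in no list. Every listed GATOR2 gene thus ranked above every GATOR1 gene in CD93-negative replicate 1. Over so few genes this is a description of 1 library.

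The 3 sestrin genes, stress-induced inhibitors of mTORC1 of which Sesn2 encodes a leucine sensor, were all in CD93-negative replicate 1. Sesn3 scored 40.9 and 13.0 in CD93-negative replicates 1 and 2 (percentiles 77.9 and 71.8), with summits at -96 and -105 bp, at and just before a CCAAT word on the other strand. Sesn2 scored 35.6 in replicate 1 alone. Sesn1 scored 8.42 and 4.15 at its outer start, near Cep57l1. A stronger summit in replicate 1 (score 26.8, chromosome 10, 41887414) lay inside the gene, at -25 bp relative to its second annotated start. The gene-end rule therefore took the weaker of its 2 start sites.

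Among the kinases next to the complexes, Rps6kb1, which encodes the S6 kinase S6K1, scored 26.2 and 5.87 in the CD93-negative libraries (percentiles 55.3 and 12.6), at a summit shared with Tubd1. Akt2 scored 11.6 in CD93-negative replicate 1. Akt1 and Rps6kb2 were in no list. Beyond the downstream end of Akt1, 9027 to 9065 bp away, a summit was present in CD93-positive replicate 2 and both CD93-negative libraries. Its scores were 10.7, 55.3 and 8.55. The 9 members in no list were Prkaa1, Prkaa2, Prkag2, Tsc2, Lamtor5, Wdr24, Sec13, Rps6kb2 and Akt1. None had a summit within 2500 bp of an end, and the nearest in CD93-negative replicate 1 was 4297 bp away, at Wdr24. The farthest summits that still counted in that library were those of Lamtor2 and Rragd, at 746 and 767 bp, so no member lay close to the limit of the window.

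Members that recurred in other libraries ranked higher in the longest list. In CD93-negative replicate 1, the 5 members of 3 libraries had a median percentile of 80.8 (66.0 to 98.5). The 16 members of both CD93-negative libraries only had a median of 64.0 (9.03 to 91.9), and the 14 members of that library alone a median of 30.0 (7.82 to 75.7). Over all genes the same classes had medians of 91.7, 65.8 and 35.0. Of the 35 members listed there, 60.0% were also in CD93-negative replicate 2 and 14.3% in CD93-positive replicate 2, against 39.6% and 9.95% of all genes listed there. With the scores of all listed genes split into 4 equal bins, from the highest to the lowest, 8 of 9, 8 of 10, 3 of 9 and 2 of 7 members recurred in CD93-negative replicate 2. Over all genes these shares were 74.3%, 45.3%, 27.0% and 11.7%. The median percentile of the listed members was 55.6 in CD93-negative replicate 1, 18.2 in CD93-negative replicate 2 and 46.3 in CD93-positive replicate 2, where the middle of all listed genes is near 50 by definition. In CD93-negative replicate 2, 12 of the 21 members lay in the lowest of 4 such bins, among them Rheb, Tsc1, Rictor, Flcn and Sesn1.

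**Figure D3:**
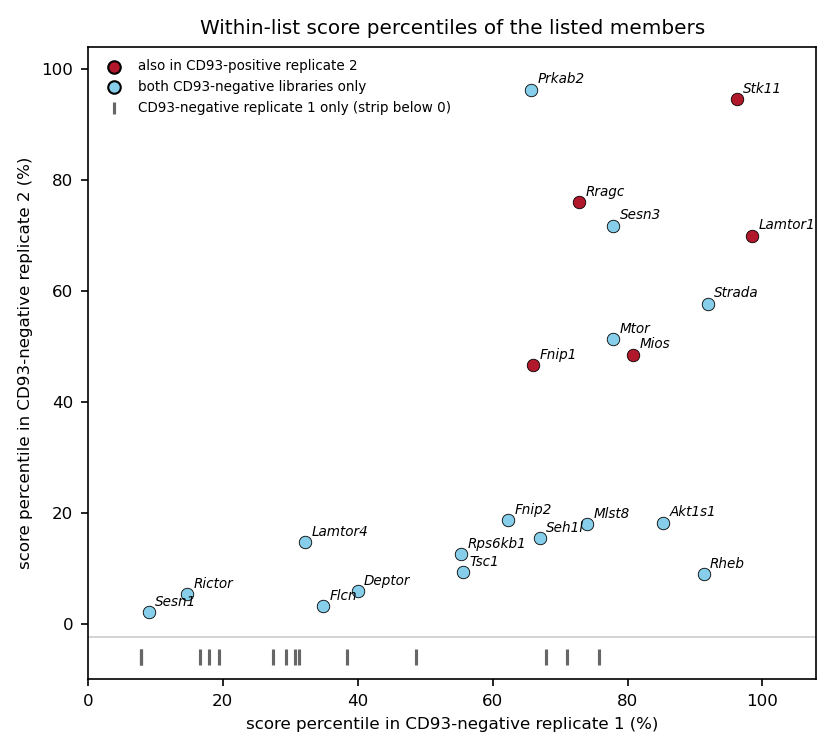
Percentile of each listed member in CD93-negative replicate 1 (horizontal axis) and CD93-negative replicate 2 (vertical axis). Red points are the 5 members also in CD93-positive replicate 2, blue points the other 16 members of both CD93-negative lists, and ticks below 0 the 14 members of replicate 1 alone. Stk11 stands at 96.2 and 94.6, while Rheb stands at 91.3 and 8.91.

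To within 250 bp, the same sites were used in each library where a member was listed. All 21 members of both CD93-negative lists had summits within 250 bp of each other, at a median of 40.0 bp and at most 240 bp (Lamtor4). Over all genes in both lists 94.8% did, at a median of 53.0 bp. With a limit of 100 bp, 16 of the 21 members shared a site. For the 5 members of CD93-positive replicate 2, summits lay 0 to 137 bp from those of CD93-negative replicate 1 and 7 to 177 bp from those of CD93-negative replicate 2. At 100 bp, 4 of these 5 shared a site with each CD93-negative library. Most member summits were at starts. RefSeq starts with strand were at hand for 39 members, and 26 of the 32 summits of these in CD93-negative replicate 1 lay within 250 bases of a start, 21 of the 32 before the start. The median position was -44 bp in that library, -105 bp in CD93-negative replicate 2 and -141 bp in CD93-positive replicate 2, the last over 5 genes. Deptor, Lamtor3, Wdr24, Seh1l and Rps6kb2 had no start in the table. In CD93-negative replicate 1, 20.0% of listed members shared their summit with an end of another gene, against 32.3% of all listed genes.

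**Figure D4:**
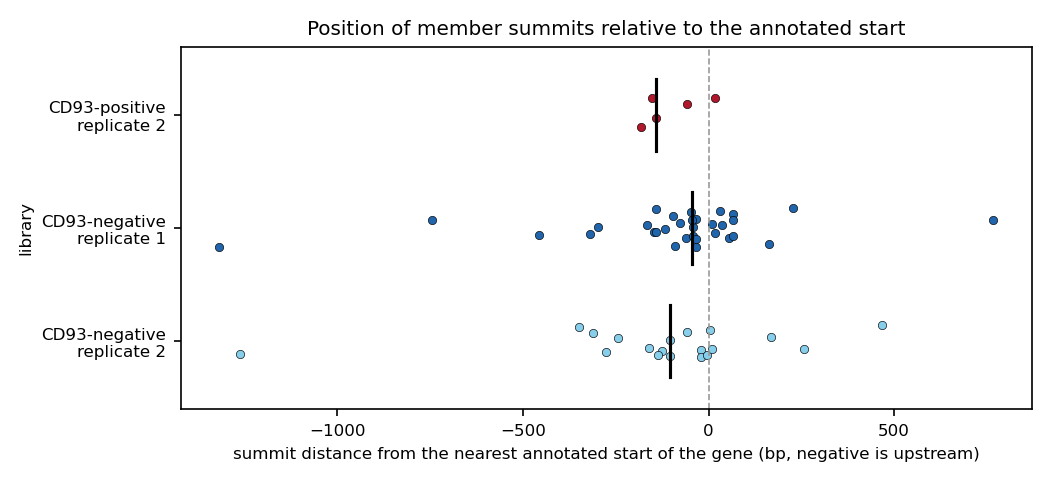
Distance of each listed member's summit from the nearest annotated start of its gene (horizontal axis, bp, negative is upstream) in the 3 libraries with listed members (rows). Points are genes, spread vertically for legibility, and black bars are medians, at -141, -44 and -105 bp. The farthest points, at -1317 and -1261 bp, are Akt1s1.

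The starts of the members were rich in CpG. A start was called CpG-rich when the stretch from 250 bases before to 50 after it had a GC content of at least 50% and a ratio of observed to expected CpG of at least 0.6. Such a start was held by 33 of the 39 members, or 84.6%, against 48.3% of the 17492 protein-coding genes with a start in the table. Among genes with a CpG-rich start, 81.8% of members and 58.1% of all genes were listed in CD93-negative replicate 1. The shares were 51.5% and 24.3% in CD93-negative replicate 2, and 15.2% and 6.64% in CD93-positive replicate 2. The members' shares stayed above those of all genes, by less in ratio than without this restriction. The 7 unlisted members with a start had a median GC content of 67.3% over 10 starts, against 69.0% for the 5 members of 3 libraries. Prkaa1 had a GC content of 82.0%, the highest of any member start.

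Of the 46 member starts, 10 (21.7%) held the ETS word CCGGAAG on either strand, against 11.6% of the 21263 starts of protein-coding genes and 21.6% of starts of genes listed in CD93-negative replicate 1. The SP and KLF word GGGCGGG was in 50.0%, against 33.9% and 52.2%. CCAAT was in 39.1%, against 38.2% and 40.9%. The E-box CACGTG, a word read by the TFEB, MYC and USF families, was in 5 starts (10.9%), against 7.84% and 11.2%. Those were Lamtor1, Fnip1, Rragc, Rheb and Lamtor4, of which the first 3 are among the 5 members of 3 libraries, a grouping singled out after the values were seen. It was in none of the 13 members of CD93-negative replicate 1 alone and none of the 7 unlisted members with a start. These counts are small, and a link of the E-box to the lists was not tested. The AP-1 word TGACTCA was in no member start, against 4.66% and 2.82%. The YY1 word AAGATGGC and the FOXO word GTAAACA were each in 6.52% of member starts, against 3.05% and 3.01% of all starts and 5.67% and 2.30% of starts of genes listed in CD93-negative replicate 1. The NRF1 word GCATGCGC was in 4.35%, against 3.52% and 6.49%, and the CRE word TGACGTCA in 2.17%, against 2.23% and 4.06%. The GATA word AGATAA was in 8.70%, against 9.65% and 5.32%, and the RUNX word TGTGGT in 15.2%, against 15.0% and 11.6%. Words of different kinds overlapped at 1 member start, a FOXO and a YY1 word after the start of Stk11.

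The 64 other pathway genes were taken in 5 lists, and their difference from the 44 members was not tested. Those listed numbered 43 in CD93-negative replicate 1, or 67.2% (95% interval 54.3 to 78.4), 15 in CD93-negative replicate 2, or 23.4% (13.8 to 35.7), and 2 in CD93-positive replicate 2, or 3.12% (0.381 to 10.8), with none in CD93-positive replicate 1. Over all genes the shares were 32.2% and 12.9% in CD93-negative replicates 1 and 2, and 3.22% in CD93-positive replicate 2. The last pathway share is near that of all genes. One of the 2 genes listed in CD93-positive replicate 2 was Bmt2, which encodes the S-adenosylmethionine sensor SAMTOR. Among other LKB1 and AMPK genes, 9 of 13 were in CD93-negative replicate 1, led by the LKB1-activated kinase genes Sik1 (score 55.0), Sik2 (52.8) and Mark2 (44.6). Other amino acid sensing genes numbered 10 of 13, led by Slc7a5, a leucine transporter (57.1), Ddit4, an mTORC1 inhibitor induced by stress (48.6), and Slc3a2 (42.3), the partner chain of Slc7a5. Of the PI3K and growth factor genes 8 of 11 were listed, among them Irs2, an insulin receptor substrate (94.0, percentile 99.2), and Pik3ca, a catalytic PI3K subunit (27.8). Of the substrate genes 10 of 18 were listed, led by Ulk1, the autophagy kinase (55.6), Eif4ebp2 (45.9) and Rps6 (33.1). Other mTOR assembly genes numbered 6 of 9, led by Mapkap1 of mTORC2 (34.3), Tbc1d7 of the TSC complex (28.0) and Tti1 (21.5).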

How the data were processed

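Each deposited file lists the peak summits of 1 library, and the authors' score was taken, from its column and range, as MACS2's −log10 significance, p or q, in that library alone. Per the submitters' processing notes, Bowtie2, MACS2 and build mm10 were used, while versions, thresholds, read filters and any Tn5 shift were not given in the sources used here. Depth and peak width were not analysed here. Gene positions and starts came from RefSeq (GRCm38.p6). All 44 members matched a symbol, and 39 had a start. Python 3.11.15 with numpy 2.4.6, pandas 2.3.3, scipy 1.17.1 and matplotlib 3.10.9 was used. Gene-end matching was tested on simulated data, where all 200 genes with a summit planted within 1000 bp were recovered at that window, and all 400, including those planted farther out, at 2500 bp. Groups and replicate numbers follow the sample titles. The summit names inside the lists carry other numbers, 2 and 3 for CD93-positive replicates 1 and 2, and 3 for CD93-negative replicate 2. Members and lists were chosen with earlier results of these data known, so no set test or p is given. All members are named. Full values go to members of a CD93-positive library, the first 12 of both CD93-negative lists by their lower percentile, and the highest of each complex. Up to 3 genes of each other list are named by percentile, and 1 of these is not reported here. Alternatives were windows, score minimums, nearest-gene assignment, equal list lengths, starts only, sharing distances and left-out libraries. The CpG-rich background was added after seeing the data.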

Additional observations from a re-analysis of the deposited data

How the results depend on the processing

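The count of members depended most on list length and on a score minimum of 10. With the CD93-negative lists cut to the length of CD93-positive replicate 2, their counts were 4 and 3. The difference between the fractions was then 2.27 points. With CD93-negative replicate 1 cut to the length of CD93-negative replicate 2, it listed 17 and the difference was 37.5 points. In both differences the CD93-positive lists kept their own lengths, 21 and 711 summits, so neither compares the fractions at fully equal length. A score of at least 10 left 0 members in CD93-positive replicate 2 and 7 in CD93-negative replicate 2. These settings use fewer summits by construction. Leaving out 1 library at a time gave 42.0 to 73.9 points, lowest without CD93-negative replicate 1. A replicate block gave 58.0 points, equal to the unpaired value by construction, and the numbers are not known to pair the libraries. Windows of 500 and 2500 bp changed 1 and 0 of the 44 genes. Nearest-gene assignment changed 2, Akt1s1 and Sesn1. A score of at least 5 removed Mios from CD93-positive replicate 2 and Rictor, Deptor, Flcn and Sesn1 from CD93-negative replicate 2. The gene body with 10000 bp on either side gave 6, 39 and 23 members in the 3 longer lists. Starts alone, at hand for 39 members, gave 5, 32 and 18. In CD93-negative replicate 1 this dropped Deptor, Lamtor3 and Seh1l, which had no start, and Akt1s1, and it added Prkag2. Unknown depth limits every absence reported.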
